A study of Homo sapiens with 112 samples.

Results

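The 9 genes described here encode enzymes, or subunits of enzymes, of the phosphoinositide 3-kinase (PI3K) and AKT pathway. They are the PI3K subunits PIK3CA, PIK3R1 and PIK3R3, the protein kinases PDPK1, AKT1, AKT2 and MTOR, and the phosphatases INPP4B and PHLPP1. They were taken by symbol from the 58684 symbols of an RNA-seq count table, and all 9 were listed and passed the filter on low counts in both cell lines. Their mRNA was followed in VCaP and LAPC4, established prostate cancer lines. Cells of every group, controls included, were first starved in 10% charcoal-stripped serum, which is low in steroids, for 2 days. They then received DMSO (the vehicle), 1 nM of the synthetic androgen R1881, or 1 nM R1881 together with 0.5 µM or 2 µM of the antiandrogen darolutamide, and were harvested after 8 h or 22 h. The 8 groups of VCaP held 55 libraries and the 8 groups of LAPC4 held 57, with 4 to 10 libraries in a group. Each line stands for itself only, and no group received darolutamide without R1881. The methods of the study state an equal number of biological replicates per condition, whereas the groups here hold 4 to 10 libraries. The labels do not say which libraries came from separate cultures, so p-values measure the spread between these libraries, which may be partly technical.

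PI3K makes the membrane lipid PIP3, which brings PDPK1 and AKT to the membrane, where PDPK1 phosphorylates and activates AKT. AKT signals on to MTOR, the kinase at the core of the complexes that control protein synthesis and growth. INPP4B removes a phosphate from a lipid product of PI3K, and PHLPP1 removes an activating phosphate from AKT, so both oppose the pathway. In prostate cancer, androgen signaling and the PI3K-AKT pathway are known to regulate each other. The pathway is switched largely by phosphorylation, which mRNA levels do not show.

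The libraries held 12188455.0 to 25201678.0 counted reads (median 20144050.5). Levels are given as CPM, the reads of a gene relative to library size, with sizes scaled within each line by the trimmed mean of M-values (TMM). The androgen-responsive gene FKBP5, which encodes a co-chaperone, was at 72.2 ± 3.27 CPM (SD, n = 8) with DMSO, 3257 ± 155 CPM (n = 9) with R1881 and 193 ± 9.32 CPM (n = 5) with 2 µM darolutamide in VCaP at 22 h. In LAPC4 its means were 124, 320.0 and 126 CPM. KLK3, which encodes prostate-specific antigen, went from 17.6 to 191 CPM with R1881 in VCaP and from 14.2 to 44.9 CPM in LAPC4. ERG, which VCaP is known to express from a gene fusion, had 1578.0 to 21554.0 reads in the VCaP libraries and 0 or 1 in those of LAPC4. The 5 epithelial or prostate markers KRT8, KRT18, EPCAM, CDH1 and HOXB13 were at 128 CPM or more in all 112 libraries. Their levels could move with treatment. With R1881 in VCaP at 8 h, mean KRT8 went from 202 to 1005 CPM and mean HOXB13 from 301 to 153 CPM. Among markers of other cell types, PTPRC, PECAM1, COL1A1, KRT5 and TP63 stayed at or below 1.75 CPM, and KRT5 was at 0 in all VCaP libraries. The liver marker ALB reached at most 0.217 CPM in LAPC4. In VCaP it moved with the treatment, from 114 to 125 CPM with DMSO to 2.22 to 3.22 CPM with R1881 at 22 h, and its part in the results below was not tested.

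On GRCh38 the PI3K subunit genes lie on chromosome 3 from 179148114 to 179240093 (PIK3CA), chromosome 5 from 68215740 to 68301821 (PIK3R1) and chromosome 1 from 46040140 to 46133036 (PIK3R3). The kinase genes lie on chromosome 16 from 2537979 to 2603188 (PDPK1), chromosome 14 from 104769349 to 104795751 (AKT1), chromosome 19 from 40230317 to 40285536 (AKT2) and chromosome 1 from 11106535 to 11262556 (MTOR). The phosphatase genes lie on chromosome 4 from 142023160 to 142847432 (INPP4B) and chromosome 18 from 62715541 to 62980433 (PHLPP1). RefSeq (GRCh38.p14) gave 24 promoter windows for the 9 genes, each reaching from 250 bases before to 50 bases after an annotated start. These windows were searched on both strands for AGAACA (a half-site of the androgen response element), GTAAACA (a forkhead motif) and GGGCGG (the GC box), none of which contains another. The half-site was found in 6 of the 24 windows, which belong to PIK3R1, PIK3R3 and AKT2, and in 14.8% of all 35116 RefSeq windows. Windows of a gene can overlap, and those of PIK3R3 from 46132580 to 46132879 and from 46132746 to 46133045 share the same match. The forkhead motif was in 1 window, that of PIK3CA, against 3.42% of all windows, and the GC box in 12, against 45% of all windows.

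The windows below run 5′ to 3′ along the gene's strand and belong to the genes on which the results turn. AKT1, INPP4B and PIK3R3 have other windows that are not printed, and some of those of PIK3R3 lack the half-site. In VCaP, MTOR, PDPK1 and AKT1 rose with R1881, and PIK3CA was lower with darolutamide at 22 h. Also in VCaP, PIK3R3 changed with R1881 in opposite directions at the 2 times. INPP4B rose with R1881 in both lines. Capitals mark letters of the 3 motifs on either strand.
MTOR (chr1:11262502-11262801, minus strand): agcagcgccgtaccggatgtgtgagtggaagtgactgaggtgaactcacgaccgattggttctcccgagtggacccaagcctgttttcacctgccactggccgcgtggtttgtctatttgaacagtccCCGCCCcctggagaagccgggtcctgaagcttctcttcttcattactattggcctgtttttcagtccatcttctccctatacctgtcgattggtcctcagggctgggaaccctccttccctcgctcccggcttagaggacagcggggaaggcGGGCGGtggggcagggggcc
PDPK1 (chr16:2537771-2538070, plus strand): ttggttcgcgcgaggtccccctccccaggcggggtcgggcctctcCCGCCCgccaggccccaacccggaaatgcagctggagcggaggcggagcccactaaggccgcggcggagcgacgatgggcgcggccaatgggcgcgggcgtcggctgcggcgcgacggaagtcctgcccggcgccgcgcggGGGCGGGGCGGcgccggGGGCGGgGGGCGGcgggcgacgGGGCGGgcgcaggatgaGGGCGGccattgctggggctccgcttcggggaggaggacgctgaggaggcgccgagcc
AKT1 (chr14:104795699-104795998, minus strand): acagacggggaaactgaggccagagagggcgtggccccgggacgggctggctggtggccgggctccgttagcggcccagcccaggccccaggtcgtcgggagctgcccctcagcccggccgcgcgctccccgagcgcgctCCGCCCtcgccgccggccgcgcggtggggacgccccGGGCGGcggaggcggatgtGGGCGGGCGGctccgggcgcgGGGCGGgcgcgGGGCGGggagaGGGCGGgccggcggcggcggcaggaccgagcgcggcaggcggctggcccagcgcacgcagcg
INPP4B (chr4:142846252-142846551, minus strand): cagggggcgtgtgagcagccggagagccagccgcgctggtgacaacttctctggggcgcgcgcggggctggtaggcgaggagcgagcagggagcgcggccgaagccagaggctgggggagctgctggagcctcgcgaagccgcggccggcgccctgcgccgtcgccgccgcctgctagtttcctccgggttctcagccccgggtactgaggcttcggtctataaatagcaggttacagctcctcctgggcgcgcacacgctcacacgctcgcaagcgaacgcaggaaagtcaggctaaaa
PIK3CA (chr3:179148107-179148406, plus strand): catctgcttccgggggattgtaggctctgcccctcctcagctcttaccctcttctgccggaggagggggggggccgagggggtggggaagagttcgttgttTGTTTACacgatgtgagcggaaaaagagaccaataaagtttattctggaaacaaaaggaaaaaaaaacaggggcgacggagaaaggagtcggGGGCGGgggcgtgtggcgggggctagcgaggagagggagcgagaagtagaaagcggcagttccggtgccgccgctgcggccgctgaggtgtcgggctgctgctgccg
PIK3R3 (chr1:46132746-46133045, minus strand): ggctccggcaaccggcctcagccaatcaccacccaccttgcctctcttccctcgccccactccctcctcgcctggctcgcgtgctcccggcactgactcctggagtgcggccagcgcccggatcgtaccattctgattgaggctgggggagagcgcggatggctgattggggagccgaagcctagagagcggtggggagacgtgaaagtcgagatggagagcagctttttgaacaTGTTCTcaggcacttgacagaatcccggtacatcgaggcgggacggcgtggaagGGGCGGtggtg
The MTOR window held 2 GC boxes, and the printed PDPK1 and AKT1 windows 7 each, while the AKT1 window from 104793552 to 104793851 held 1. None of these held the half-site, and none of the 6 windows of INPP4B held any of the 3 motifs. A match describes letters only, and more distant regulatory regions were not searched.

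Without added androgen, the lines had very different levels of the regulatory subunits. Per kilobase of exon, VCaP with DMSO at 22 h (n = 8) had its highest means for AKT1 (8.37 ± 1.39 CPM per kb, SD) and MTOR (8.33 ± 0.341), whose libraries overlapped. PIK3R1 (7.03 ± 0.338), AKT2 (6.94 ± 1.15), PDPK1 (6.51 ± 0.179) and PIK3R3 (6.26 ± 0.389) came next, each overlapping its neighbor in this order. PHLPP1 (2.30 ± 0.113), PIK3CA (1.40 ± 0.133) and INPP4B (0.457 ± 0.0422) were lowest and did not overlap each other. In LAPC4 (n = 7) the order began with PIK3R3 (92.8 ± 4.07) and PIK3R1 (85.7 ± 4.57), which overlapped, and AKT1 (38.4 ± 5.12), which overlapped neither. MTOR (11.1 ± 0.526) overlapped PDPK1 (9.86 ± 0.233), and AKT2 (5.70 ± 0.710) overlapped PHLPP1 (5.56 ± 0.0915). PIK3CA (2.65 ± 0.178) and INPP4B (1.41 ± 0.0981) were again lowest.

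**Figure D1:**
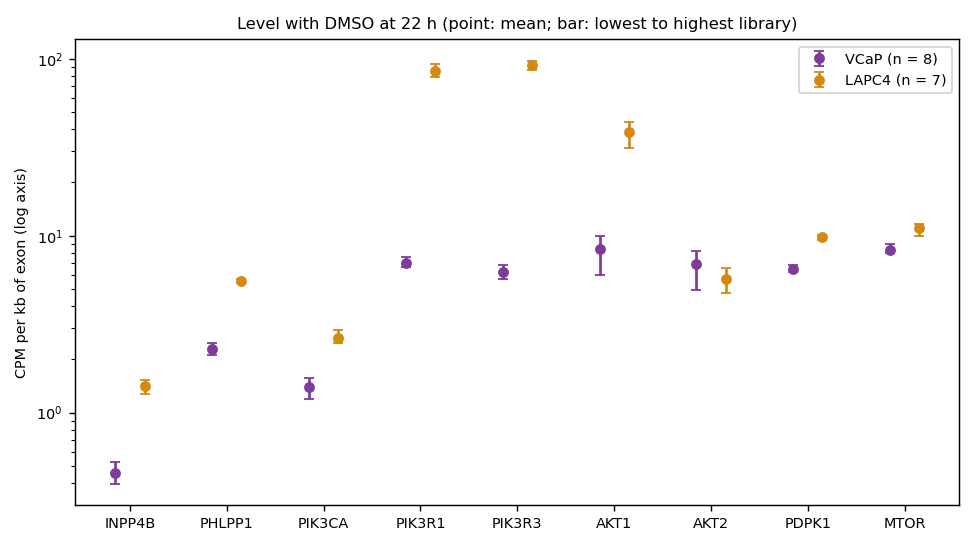
Level of each gene with DMSO at 22 h in CPM per kilobase of exon, on a log axis, for VCaP (n = 8) and LAPC4 (n = 7); points are means and bars run from the lowest to the highest library. PIK3R1 and PIK3R3 lie near 7.03 and 6.26 in VCaP but near 85.7 and 92.8 in LAPC4, and AKT2 is the only one of the 9 with a higher mean in VCaP. Library sizes were scaled within each line here. The distances between the lines therefore differ from the log2 fold changes in the text, which come from a fit of both lines.

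Between the lines, all 9 genes differed with DMSO at 22 h (called at an adjusted p under 0.05), as did 85.5% of the 16578 genes tested in both. PIK3R3 was lower in VCaP by a log2 fold change of -3.59 ± 0.045 (SE; adjusted p = 8.37e-91) and PIK3R1 by -3.31 ± 0.046 (adjusted p = 9.34e-87). AKT1 (-1.90 ± 0.11), INPP4B (-1.32 ± 0.087), PHLPP1 (-0.97 ± 0.039) and PIK3CA (-0.61 ± 0.064) were also lower. PDPK1 (-0.30 ± 0.025) and MTOR (-0.11 ± 0.034) differed least, and AKT2 was higher in VCaP (0.58 ± 0.10, adjusted p = 2.48e-07). The median absolute difference of the 9 genes was 0.97, against 0.78 over all genes. With total counts as library sizes the median of all genes moved from -0.038 to -0.31, and the split stayed at 1 higher and 8 lower, with AKT2 at 0.31, PDPK1 at -0.57 and MTOR at -0.38. Without a filter on low counts MTOR was at -0.19.

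In VCaP, R1881 raised the mRNA of MTOR, AKT1 and PDPK1 at 22 h, and AKT2 by less. MTOR was 106 to 120.5 CPM (median 110.0) in the 8 DMSO libraries and 232 to 271 CPM (median 255) in the 9 R1881 libraries. Every R1881 library was above every DMSO library, and the log2 fold change was 1.19 ± 0.029 (2.28-fold, adjusted p = 4.78e-40). PDPK1 was 68.4 to 74.5 CPM (median 70.6) with DMSO and 132 to 143 CPM (median 135) with R1881, again without overlap (0.93 ± 0.026, 1.91-fold, adjusted p = 4.78e-37). AKT1 was 65.9 to 109 CPM (median 92.7) with DMSO and 137 to 228 CPM (median 188) with R1881. Its groups did not overlap either, although its libraries scattered more than those of MTOR and PDPK1, and its change was 1.04 ± 0.11 (2.06-fold, adjusted p = 8.54e-13). AKT2, the close relative of AKT1, was 78.4 to 130.5 CPM (median 111) with DMSO and 99.8 to 155 CPM (median 133) with R1881. These ranges overlapped, and it rose by 0.24 ± 0.094 (adjusted p = 0.0189). AKT2 did not pass with total counts as library sizes (0.13, adjusted p = 0.22) or with replicates 1 to 5 as the only DMSO and R1881 libraries (0.13, adjusted p = 0.324).

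A further fit took as covariate how steeply log2 CPM in each library followed gene GC content. In it, AKT1 at 22 h had a change of 0.88 ± 0.026 and AKT2 one of 0.10 ± 0.024. The standard errors were smaller than the 0.11 and 0.094 without it. What made this GC slope vary between libraries was not tested.

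**Figure D2:**
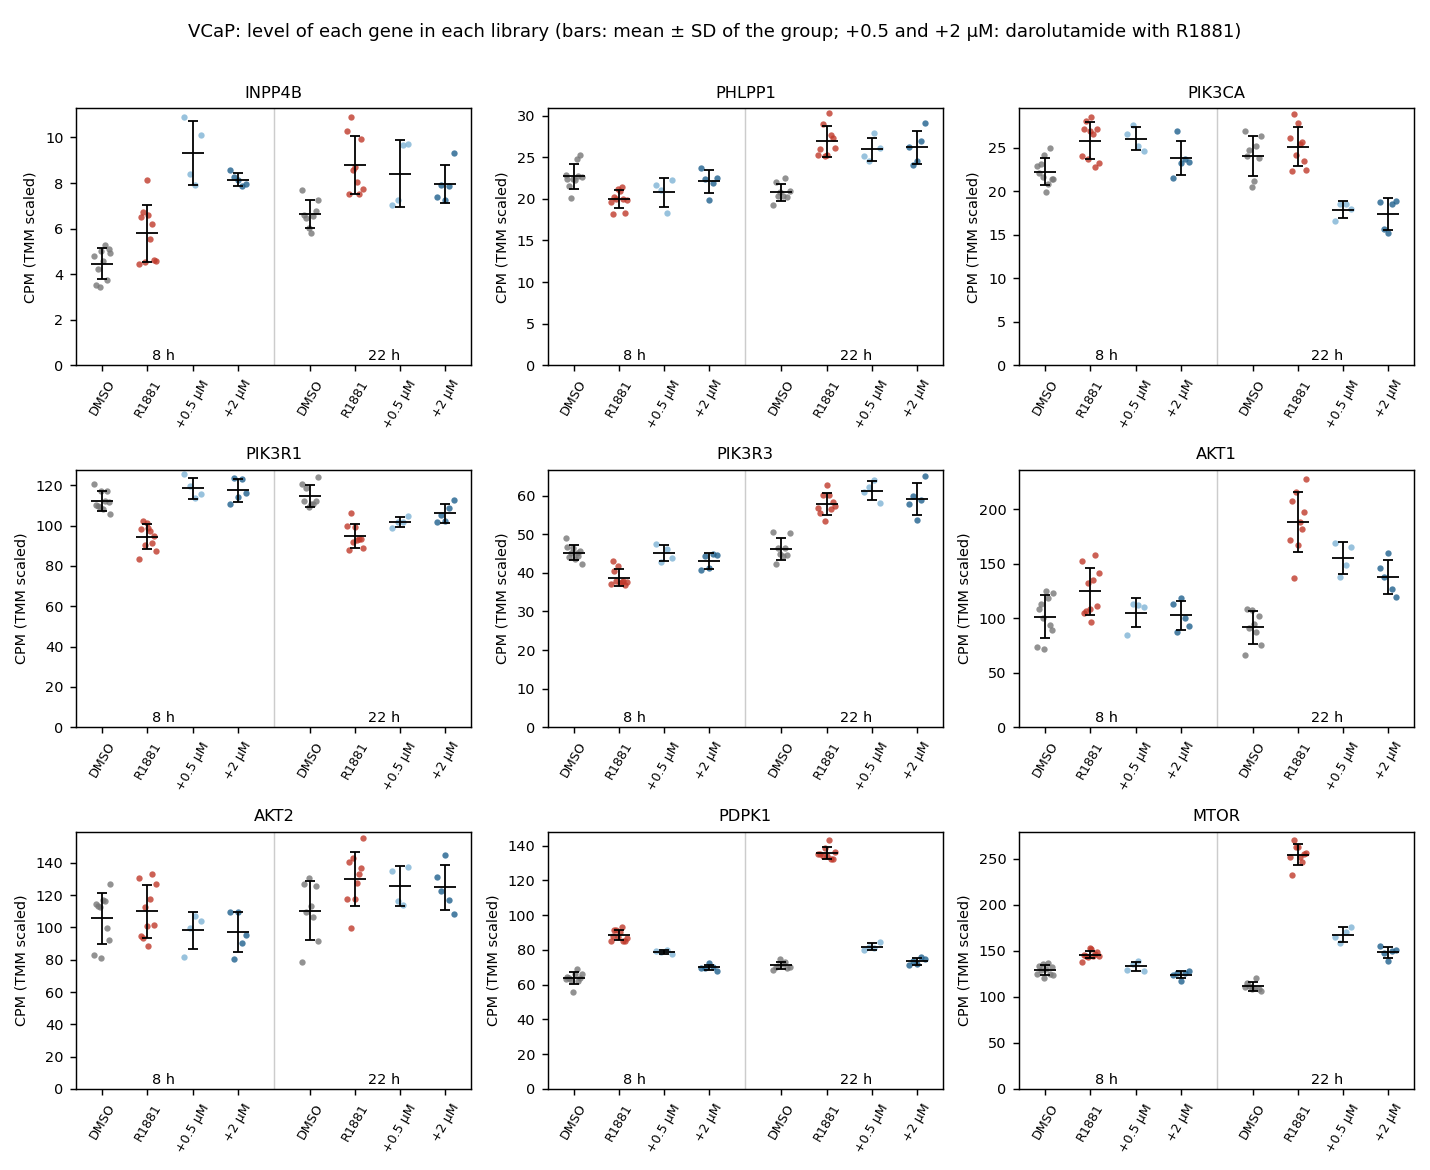
Level of each gene in each of the 55 VCaP libraries, in TMM-scaled CPM, by treatment at 8 h and 22 h; points are libraries, bars are the mean ± SD of a group, and the darolutamide groups also received R1881. PDPK1 and MTOR with R1881 at 22 h (132 to 143 CPM and 232 to 271 CPM) sit above all their other groups, and INPP4B at 8 h is highest with darolutamide.

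Among the PI3K subunits in VCaP, PIK3R1, which binds and restrains the catalytic subunit, fell at both times. It was 106 to 121 CPM (median 111) with DMSO and 83.4 to 102 CPM (median 96.0) with R1881 at 8 h, and 109 to 124 CPM (median 112) and 87.96 to 106 CPM (median 93.5) at 22 h. The groups did not overlap at either time, and the changes were -0.25 ± 0.034 (adjusted p = 3.82e-09) and -0.28 ± 0.037 (adjusted p = 1.56e-09). PIK3R3, another regulatory subunit, fell at 8 h and rose at 22 h. At 8 h it was 42.4 to 49.02 CPM (median 45.2) with DMSO and 36.99 to 43.1 CPM (median 37.8) with R1881, with overlap (-0.22 ± 0.035, adjusted p = 1.31e-07). At 22 h it was 42.3 to 50.5 CPM (median 45.7) with DMSO and 53.5 to 62.7 CPM (median 57.2) with R1881, without overlap (0.32 ± 0.038, adjusted p = 4.00e-11). PIK3CA, the catalytic subunit p110α, rose at 8 h (0.21 ± 0.053, adjusted p = 4.03e-04) but not with total counts as library sizes (0.068, adjusted p = 0.217). At 22 h its change was 0.057 ± 0.058 (adjusted p = 0.37).

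Of the phosphatases, PHLPP1 also fell at 8 h and rose at 22 h. At 8 h it was 20.1 to 25.3 CPM (median 22.5) with DMSO and 18.2 to 21.4 CPM (median 19.97) with R1881 (-0.18 ± 0.043, adjusted p = 1.69e-04). At 22 h it was 19.3 to 22.4 CPM (median 20.6) with DMSO and 25.1 to 30.3 CPM (median 26.1) with R1881, without overlap (0.37 ± 0.046, adjusted p = 3.08e-10). INPP4B was the least abundant of the 9 genes, with 66 to 116 reads per library with DMSO at 8 h. It went from 3.43 to 5.28 CPM (median 4.69) to 4.44 to 8.14 CPM (median 5.87) at 8 h (0.37 ± 0.10, adjusted p = 8.28e-04) and from 5.79 to 7.70 CPM (median 6.59) to 7.53 to 10.9 CPM (median 8.56) at 22 h (0.40 ± 0.10, adjusted p = 3.59e-04), with overlap at both times. With replicates 6 and above as the only DMSO and R1881 libraries, INPP4B did not pass at 8 h (0.23, adjusted p = 0.105) or 22 h (0.26, adjusted p = 0.0948).

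At 8 h, PDPK1 went from 55.8 to 69.2 CPM (median 63.8) with DMSO to 85.1 to 92.95 CPM (median 87.7) with R1881, a rise of 0.47 ± 0.024 without overlap (adjusted p = 8.00e-25). MTOR went from 120.5 to 137 CPM (median 129) to 138 to 153 CPM (median 145), a rise of 0.18 ± 0.027, also without overlap (adjusted p = 4.47e-08). AKT1 rose by 0.30 ± 0.10 (adjusted p = 0.00659) and AKT2 had 0.061 ± 0.087 (adjusted p = 0.551), with overlapping groups for both. Total counts as library sizes moved the median of all genes from -0.034 to -0.18, and neither MTOR (0.034, adjusted p = 0.196) nor AKT1 (0.16, adjusted p = 0.16) then passed, while INPP4B (0.23), PHLPP1 (-0.32), PIK3R1 (-0.39) and PIK3R3 (-0.37) moved and still passed. AKT1 did not pass with replicates 6 and above as the only DMSO and R1881 libraries (0.23, adjusted p = 0.0916), and AKT2 passed with the GC slope as a covariate (0.13, adjusted p = 3.79e-07).

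In all, 8 of the 9 genes passed at 8 h in VCaP, 5 higher and 3 lower with R1881, as did 66.9% of the 19266 genes tested. With total counts this split was 2 higher and 3 lower, while that of all genes went from 6327 higher and 6564 lower to 4658 and 9058. At 22 h 8 of 9 passed, 7 higher and 1 lower, against 77.4% of all genes, so these counts are not far above the background. Total counts moved the median of all genes at 22 h from -0.034 to -0.14 and left 6 of the 9 genes higher and 1 lower, with PIK3R3 at 0.21. The median log2 fold change of the 9 genes at 22 h was 0.37, against -0.034 over all genes, and the median absolute change 0.37 against 0.53. The R1881 response differed between 22 h and 8 h for 5 of the 9 genes (background 60.4%), and was higher at 22 h for each. These were MTOR (1.01 ± 0.039, adjusted p = 9.88e-30), AKT1 (0.75 ± 0.14), PHLPP1 (0.55 ± 0.063), PIK3R3 (0.55 ± 0.051) and PDPK1 (0.46 ± 0.036).

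Darolutamide given with R1881 lowered PDPK1 and MTOR in VCaP at both doses and both times. At 22 h PDPK1 was 71.2, 73.4, 71.8, 75.8 and 74.7 CPM in the 5 libraries with 2 µM and 79.99, 81.4, 80.9 and 84.6 CPM in the 4 with 0.5 µM, all below the lowest R1881 library at 132 CPM. The changes against R1881 were -0.89 ± 0.031 (adjusted p = 2.46e-32) and -0.73 ± 0.033 (adjusted p = 2.12e-26). MTOR at 22 h was 155, 147, 139, 150.3 and 151 CPM with 2 µM and 165, 158, 171 and 176 CPM with 0.5 µM, all below the lowest R1881 library at 232 CPM. Its changes were -0.78 ± 0.034 (adjusted p = 6.94e-28) and -0.60 ± 0.036 (adjusted p = 4.20e-21). At 8 h PDPK1 changed by -0.34 ± 0.030 and -0.16 ± 0.032, and MTOR by -0.23 ± 0.033 and -0.13 ± 0.035, at 2 µM and 0.5 µM. The last of these did not pass with total counts as library sizes (-0.057, adjusted p = 0.163), where MTOR at 2 µM (-0.12) and PDPK1 at 0.5 µM (-0.088) still passed.

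The doses themselves differed for PDPK1 and MTOR. PDPK1 was lower with 2 µM than with 0.5 µM at 8 h (-0.17 ± 0.036, adjusted p = 2.03e-04) and 22 h (-0.15 ± 0.036, adjusted p = 8.89e-04), and MTOR at 22 h (-0.18 ± 0.039, adjusted p = 5.62e-04), each without overlap. Thus 1 of 9 genes passed at 8 h (background 17.6%) and 2 at 22 h (20.2%). For the other genes the widest 95% intervals of the dose difference at 22 h were -0.46 to 0.11 for AKT1 and -0.35 to 0.18 for INPP4B.

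PIK3CA was lower with darolutamide at 22 h than with either DMSO or R1881 alone. It was 18.8, 15.6, 15.2, 18.5 and 18.9 CPM with 2 µM and 16.6, 18.6, 18.5 and 17.97 CPM with 0.5 µM. These values lay below all 9 R1881 libraries (22.3 to 28.9 CPM) and all 8 DMSO libraries (20.5 to 26.9 CPM). The changes against R1881 were -0.53 ± 0.068 at 2 µM (adjusted p = 8.11e-10) and -0.49 ± 0.074 at 0.5 µM (adjusted p = 9.56e-08), and that of 2 µM darolutamide plus R1881 against DMSO was -0.47 ± 0.069 (adjusted p = 3.96e-08). The doses differed by -0.041 (95% interval -0.20 to 0.12). At 8 h PIK3CA had -0.12 ± 0.065 and 0.014 ± 0.070 against R1881 and did not pass at either dose.

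INPP4B, in contrast, was higher with darolutamide at 8 h. It was 8.57, 8.25, 8.12, 7.87 and 7.95 CPM with 2 µM and 10.9, 8.39, 7.92 and 10.1 CPM with 0.5 µM. All 9 values exceeded the highest DMSO library at 5.28 CPM, while the R1881 libraries reached 8.14 CPM and overlapped them. The change against R1881 was 0.50 ± 0.11 at 2 µM (adjusted p = 1.38e-04) and 0.69 ± 0.12 at 0.5 µM (adjusted p = 4.35e-06), and that against DMSO 0.87 ± 0.11 at 2 µM (adjusted p = 6.67e-09). At 22 h INPP4B had -0.15 ± 0.11 at 2 µM (95% interval -0.37 to 0.073) and -0.065 ± 0.12 at 0.5 µM (-0.30 to 0.17) against R1881, and passed at neither dose.

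PIK3R1 rose with 2 µM darolutamide against R1881 at 8 h, when its libraries were 111, 124, 114, 123 and 116 CPM and did not overlap (0.32 ± 0.041, adjusted p = 1.79e-09), and at 22 h with overlap (0.16 ± 0.042, adjusted p = 6.03e-04). With 0.5 µM it rose at 8 h (0.33 ± 0.044) and had 0.10 ± 0.045 at 22 h, which did not pass (adjusted p = 0.05). AKT1 fell at 22 h with 2 µM, when its libraries were 146, 138, 159.5, 127 and 119 CPM and overlapped those with R1881 (-0.45 ± 0.12, adjusted p = 0.00105). Its fall at 8 h (-0.28 ± 0.12, adjusted p = 0.0468) lost the call without replicate 1, 2, 4 or 5 of that dose (adjusted p of 0.0524 to 0.173). It also lost it with total counts (-0.17), without a filter on low counts, with replicates 1 to 5 as the only R1881 libraries and with the compared groups only (adjusted p of 0.0567 to 0.249). PHLPP1 and PIK3R3 rose at 8 h with 2 µM (0.14 ± 0.052, adjusted p = 0.0168, and 0.15 ± 0.043, adjusted p = 0.00189). With replicates 1 to 5 as the only R1881 libraries neither passed (PHLPP1 0.13, adjusted p = 0.0629, PIK3R3 0.088, adjusted p = 0.181), and PHLPP1 did not with replicates 6 and above either (0.12, adjusted p = 0.119). With total counts they were at 0.25 and 0.26, and PIK3R1 with 2 µM at 22 h at 0.25. At 22 h PHLPP1 and PIK3R3 had 95% intervals of -0.14 to 0.064 and -0.052 to 0.11 against R1881. AKT2 did not pass at either time or dose, but with the GC slope as a covariate it passed at 8 h with 2 µM (-0.14, adjusted p = 7.49e-06) and 0.5 µM (-0.079, adjusted p = 0.023).

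Against R1881, 2 µM darolutamide changed 7 of the 9 genes at 8 h (background 52.1%) and 5 at 22 h (66.9%), and 0.5 µM changed 5 at 8 h (30.6%) and 3 at 22 h (53.0%). With total counts as library sizes, the split for 2 µM at 22 h went from 1 higher and 4 lower to 2 and 4. For 0.5 µM at 22 h it went from 0 and 3 to 2 and 3, and at 8 h from 3 and 2 to 3 and 1. Over all genes, the split for 0.5 µM at 8 h went from 2871 higher and 3026 lower to 4643 and 2075. Such moves of the split are therefore not particular to the 9 genes. For 2 µM at 8 h total counts moved the median of all genes from 0.014 to 0.12. The comparisons of R1881 with DMSO and with darolutamide share the R1881 libraries, so their values are not independent.

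Set against DMSO, cells with R1881 and 2 µM darolutamide differed in 2 of the 9 genes at 8 h (background 27.5%), INPP4B and PDPK1 (0.14 ± 0.030, adjusted p = 2.54e-04). PDPK1 did not pass with replicates 6 and above as the only DMSO libraries (0.083, adjusted p = 0.0678). With total counts the split at 8 h went from 2 higher and 0 lower to 2 and 2. At 22 h 6 of 9 differed (background 59.0%). MTOR (0.41 ± 0.034, adjusted p = 5.27e-16), AKT1 (0.59 ± 0.12, adjusted p = 4.39e-05), PIK3R3 (0.35 ± 0.043) and PHLPP1 (0.33 ± 0.053) were higher without overlap. PIK3CA and PIK3R1 (-0.11 ± 0.043, adjusted p = 0.0191) were lower, and PIK3R1 did not pass with replicates 1 to 5 as the only DMSO libraries (-0.10, adjusted p = 0.0822) and was at -0.074 with the GC slope as a covariate. PDPK1 had 0.047 ± 0.031 at 22 h, with a 95% interval of -0.014 to 0.11.

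**Figure D3:**
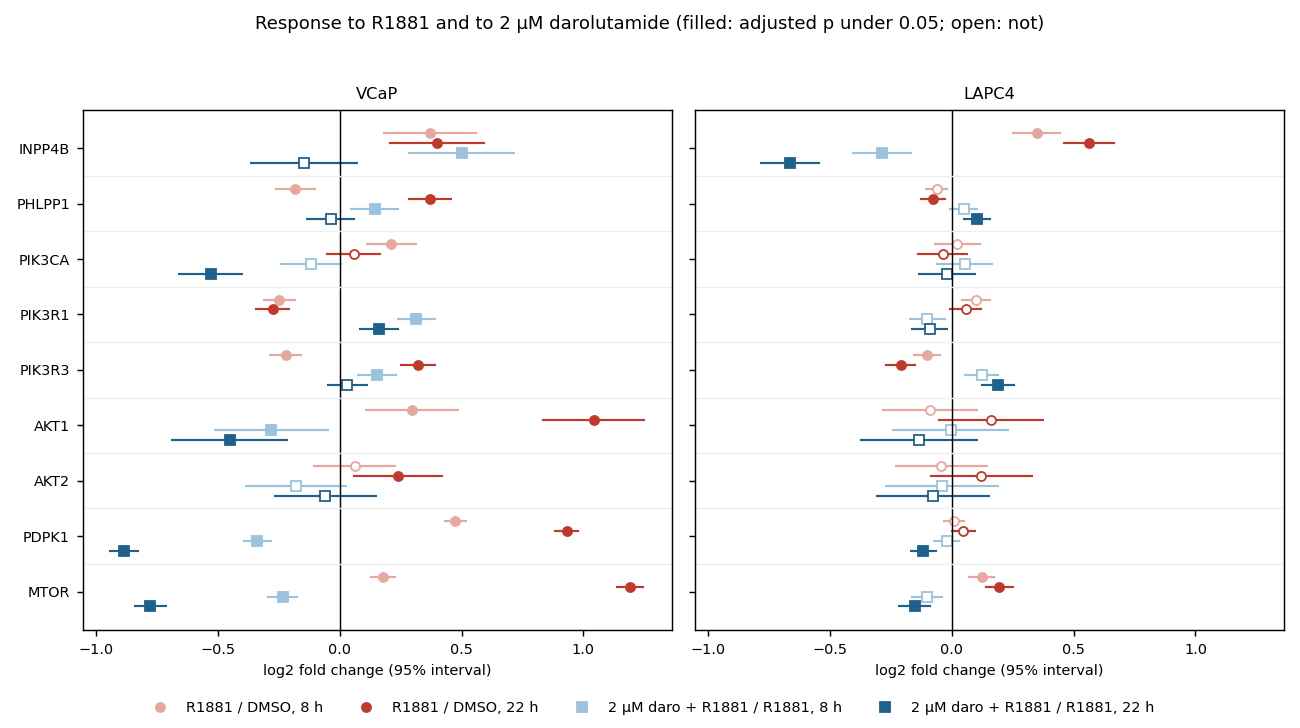
Log2 fold changes of the 9 genes with 95% intervals in VCaP and LAPC4, for R1881 against DMSO (circles) and 2 µM darolutamide plus R1881 against R1881 (squares), at 8 h (pale) and 22 h (dark); filled symbols passed at an adjusted p under 0.05. In VCaP, MTOR (1.19), AKT1 (1.04) and PDPK1 (0.93) lie farthest to the right with R1881 at 22 h, and in LAPC4 INPP4B (0.56) does.

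In LAPC4, INPP4B had the largest response to R1881 among the 9 genes. At 22 h it was 18.4 to 22.3 CPM (median 20.1) in the 7 DMSO libraries and 26.8 to 32.8 CPM (median 30.8) in the 10 R1881 libraries. The groups did not overlap, and the change was 0.56 ± 0.055 (1.48-fold, adjusted p = 3.90e-12). At 8 h it was 13.1 to 17.7 CPM (median 15.4) with DMSO and 16.2 to 21.6 CPM (median 19.6) with R1881, with overlap (0.35 ± 0.051, adjusted p = 1.41e-06). With darolutamide at 22 h it was 19.4, 18.7, 19.6, 20.6 and 17.2 CPM at 2 µM and 20.4, 22.6, 20.5, 20.2 and 18.99 CPM at 0.5 µM. All 10 values lay below the lowest R1881 library, at changes of -0.67 ± 0.063 (adjusted p = 1.29e-12) and -0.56 ± 0.062 (adjusted p = 6.81e-10). At 8 h the changes were -0.29 ± 0.063 (adjusted p = 0.00315) and -0.21 ± 0.062 (adjusted p = 0.164), and the former did not pass with replicates 6 and above as the only controls (-0.20, adjusted p = 0.272). Against DMSO, R1881 with 2 µM darolutamide left INPP4B at -0.10 ± 0.066 at 22 h (95% interval -0.23 to 0.026).

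MTOR and PIK3R3 moved less in LAPC4. MTOR was 134 to 155 CPM (median 152) with DMSO and 156 to 178 CPM (median 171) with R1881 at 22 h, a rise of 0.19 ± 0.031 without overlap (adjusted p = 1.80e-06), and rose by 0.12 ± 0.028 at 8 h (adjusted p = 0.00388). With replicates 6 and above as the only controls it did not pass at 22 h (0.15, adjusted p = 0.0751) or 8 h (0.10, adjusted p = 0.254), and with replicates 1 to 5 it did not pass at 8 h (0.14, adjusted p = 0.0996). Of the 7 DMSO libraries at 22 h, the subset of replicates 6 and above kept only replicates 6 and 7. With 2 µM darolutamide at 22 h MTOR was 155, 152, 150.1, 160.5 and 145 CPM, a change of -0.15 ± 0.034 against R1881 (adjusted p = 9.61e-04). PIK3R3 was 637 to 723 CPM (median 689.8) with DMSO and 545 to 637 CPM (median 602) with R1881 at 22 h, a fall in overlapping groups (-0.21 ± 0.033, adjusted p = 1.20e-06). It rose against R1881 with 2 µM (0.19 ± 0.036, adjusted p = 9.11e-05) and 0.5 µM (0.17 ± 0.036, adjusted p = 8.70e-04). Its fall at 8 h (-0.10 ± 0.030, adjusted p = 0.046) did not pass with RLE size factors, total counts, DESeq2, no filter on low counts, replicates 6 and above as the only controls or the compared groups only (adjusted p of 0.0849 to 0.66).

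PHLPP1 had small changes in LAPC4 that many alternatives did not call. Its fall with R1881 at 22 h (-0.078 ± 0.027, adjusted p = 0.0424) did not pass with DESeq2, no filter on low counts, either subset of controls or the compared groups only (adjusted p of 0.0548 to 0.493). Against R1881 at 22 h it was higher with 2 µM (0.10 ± 0.030, adjusted p = 0.0136) and 0.5 µM (0.14 ± 0.030, adjusted p = 7.77e-04). The former did not pass with replicates 1 to 5 as the only controls (0.057, adjusted p = 0.206), and neither passed with the compared groups only (adjusted p = 0.178 and 0.0672). In the R1881 group replicate 10 was at 41.4 CPM and the other libraries at 45.5 to 50.5 CPM. PDPK1 had 0.047 ± 0.025 with R1881 at 22 h and fell with 2 µM (-0.12 ± 0.028, adjusted p = 0.00261). That fall did not pass with replicates 6 and above as the only controls (-0.071, adjusted p = 0.244) or with the compared groups only (-0.12, adjusted p = 0.064).

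AKT1, AKT2, PIK3CA and PIK3R1 passed none of the LAPC4 comparisons. At 22 h with R1881 the 95% intervals were -0.056 to 0.38 for AKT1, -0.091 to 0.33 for AKT2, -0.14 to 0.068 for PIK3CA and -0.012 to 0.12 for PIK3R1. AKT1 ranged from 342 to 482 CPM within the DMSO group. With the GC slope as a covariate, both AKT1 (0.062 ± 0.018, adjusted p = 0.00883) and PIK3R1 (0.083 ± 0.016, adjusted p = 1.96e-05) passed for R1881 at 22 h. In that fit AKT1 also passed at 22 h against R1881 with 2 µM (-0.10) and 0.5 µM (-0.10). PIK3R1 passed with R1881 at 8 h (0.078), with 2 µM at 8 h (-0.11) and 22 h (-0.11) and with 0.5 µM at 8 h (-0.084).

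**Figure D4:**
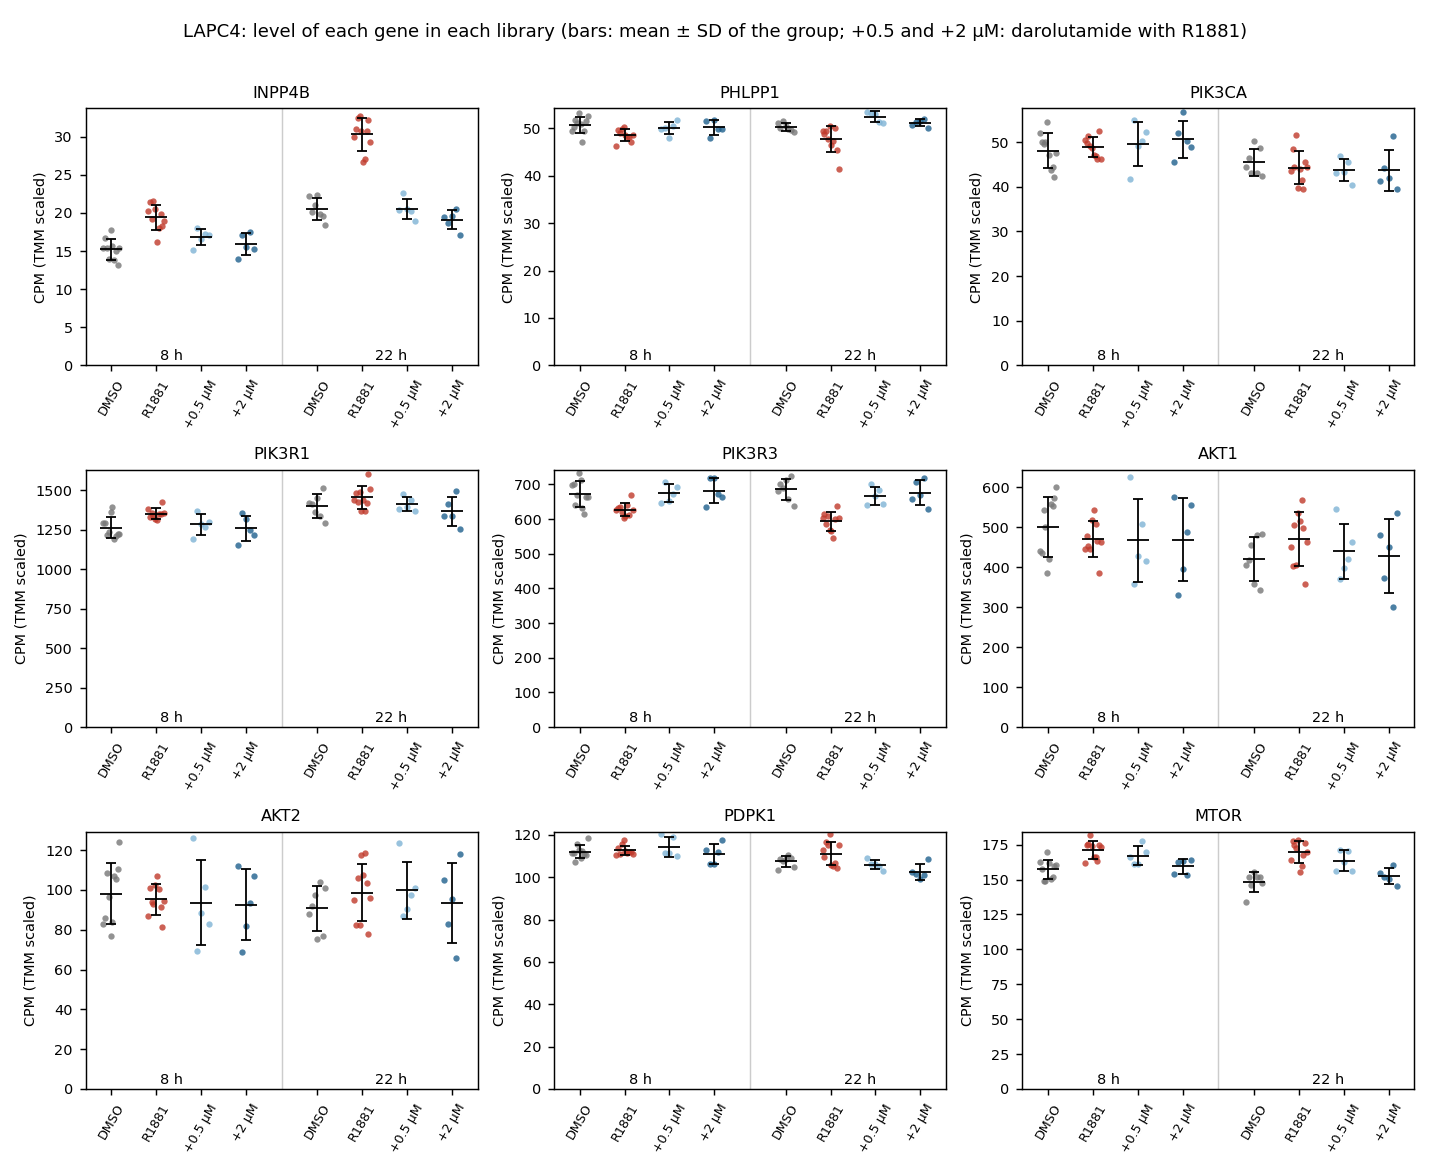
Level of each gene in each of the 57 LAPC4 libraries, in TMM-scaled CPM, by treatment at 8 h and 22 h, with points for libraries and bars for the mean ± SD of a group. INPP4B at 22 h stands at 26.8 to 32.8 CPM with R1881, above all its other groups, while AKT1 and AKT2 scatter widely within every group.

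R1881 changed 3 of the 9 genes in LAPC4 at 8 h, against 2.64% of the 18204 genes tested, and 4 at 22 h, against 13.3%. With total counts the split at 8 h went from 2 higher and 1 lower to 2 and 0. Against R1881, 2 µM darolutamide changed 1 at 8 h (1.54%) and 5 at 22 h (10.5%), and 0.5 µM changed 0 at 8 h (0.626%) and 3 at 22 h (5.89%). In that comparison with 0 calls by edgeR, 2 genes had an unadjusted p under 0.05 and DESeq2 called 0. Between the doses edgeR called 0 at 8 h (0.0275%; 0 at an unadjusted p under 0.05) and 0 at 22 h (0.258%; 1 unadjusted), and DESeq2 called 0 and 0. For 2 µM darolutamide plus R1881 against DMSO, edgeR called 0 at 8 h (0.0110%; 0 unadjusted) and 0 at 22 h (0.0165%; 1 unadjusted), and DESeq2 called 0 and 0. For the R1881 response at 22 h minus 8 h, edgeR called 0 (3.21%; 2 unadjusted) and DESeq2 0. The median absolute change of the 9 genes with R1881 at 22 h was 0.12, against 0.086 over all genes.

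The response to R1881 was also tested for a difference between the lines, which was found for 5 of the 9 genes at 8 h (background 58.5%) and 6 at 22 h (68.5%). At 22 h the VCaP response was higher for MTOR (0.94 ± 0.046, adjusted p = 1.66e-36), PDPK1 (0.83 ± 0.033, adjusted p = 1.01e-43), AKT1 (0.83 ± 0.15, adjusted p = 5.64e-07), PIK3R3 (0.47 ± 0.057) and PHLPP1 (0.39 ± 0.052), and lower for PIK3R1 (-0.39 ± 0.058, adjusted p = 4.22e-09). At 8 h it was higher for PDPK1 (0.38 ± 0.030) and AKT1 (0.30 ± 0.14, adjusted p = 0.0478) and lower for PIK3R1 (-0.43 ± 0.053), PIK3R3 (-0.21 ± 0.053) and PHLPP1 (-0.20 ± 0.048). INPP4B had intervals of -0.28 to 0.15 at 8 h and -0.45 to 0.0047 at 22 h. With total counts as library sizes, INPP4B passed at 22 h (-0.26, adjusted p = 0.0294), MTOR passed at 8 h (-0.10, adjusted p = 0.0117) and AKT1 did not (0.23, adjusted p = 0.158). The splits then went from 2 higher and 3 lower to 1 and 4 at 8 h, and from 5 and 1 to 5 and 2 at 22 h.

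A list of 72 other genes of the pathway gives the surroundings of these 9, and 64 of them were tested in VCaP and 62 in LAPC4. With R1881 at 22 h, 54 of the 64 passed in VCaP (34 higher and 20 lower), against 77.4% of all genes, and 13 of the 62 in LAPC4 (8 higher and 5 lower), against 13.3%. By direction, 37.4% of all genes were higher and 40% lower in VCaP, and 6.83% and 6.45% in LAPC4. The median log2 fold change of the list was 0.22 in VCaP and -0.0050 in LAPC4. Of the receptors and adaptors upstream, 3 of 10 rose and 6 fell in VCaP. IGF1R, the receptor of insulin-like growth factor 1, went from 249 ± 5.93 to 942 ± 14.5 CPM (1.92 ± 0.025, adjusted p = 3.30e-53). PIK3AP1, an adaptor of PI3K, rose by 2.39 ± 0.046 and EGFR, the receptor of epidermal growth factor, by 1.05 ± 0.035. The other PI3K subunits were split, with 3 of 6 higher and 3 lower. Of the phosphatases and inhibitors, 9 of 14 rose and 3 fell. The 5 SGK and S6 kinases, which PDPK1 and mTOR complexes activate as they do AKT, had 5 higher and 0 lower, from 0.22 ± 0.043 for RPS6KB1 to 2.06 ± 0.10 for SGK3. Among the mTOR complexes and their regulators 6 of 16 rose and 5 fell. SESN3 and SESN1, sestrins that inhibit mTOR complex 1, were among those that fell. SESN3 went from 1433 ± 117 to 249 ± 19.8 CPM (-2.52 ± 0.057, adjusted p = 7.89e-42) and SESN1 from 148 ± 8.63 to 37.97 ± 3.51 CPM (-1.97 ± 0.045). Of the effectors downstream, 8 of 12 rose and 3 fell, the latter including RPS6, a ribosomal protein phosphorylated by S6 kinases (-1.01 ± 0.030).

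In LAPC4 the list genes with the smallest adjusted p that rose at 22 h were SGK1 (0.78 ± 0.040, adjusted p = 3.61e-23) and SGK3 (0.68 ± 0.073), kinases related to AKT, and TBC1D4, an AKT substrate (0.55 ± 0.032). SESN1 (-0.42 ± 0.042, adjusted p = 7.65e-12) and the adaptor GAB1 (-0.26 ± 0.050) were among those that fell. PPP2R2A, a regulatory subunit of the phosphatase PP2A, was singled out after its values were seen. It had 0 reads in all 55 VCaP libraries, which allows up to 0.00271 CPM (3 counts over their summed reads, counting error only), while LAPC4 had 135 to 157 CPM with DMSO at 22 h.

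**Figure D5:**
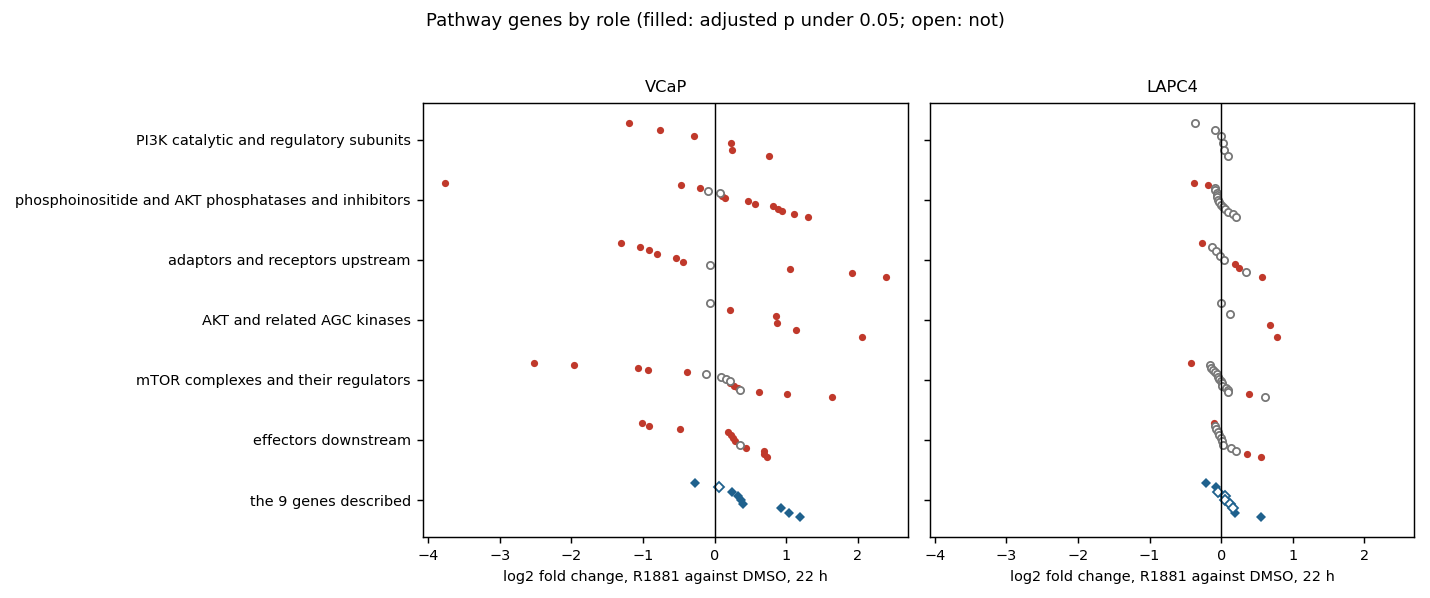
Log2 fold changes with R1881 against DMSO at 22 h in VCaP and LAPC4 for the tested genes of the pathway list, by role, with the 9 genes described here as blue diamonds; filled symbols passed at an adjusted p under 0.05. In VCaP 54 of 64 list genes are filled and in LAPC4 13 of 62, where values lie closer to 0.

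Over the 55 VCaP libraries, the genes whose log2 CPM was most like that of each of the 9 were sought among 13967 genes by Pearson's r. The libraries share treatments and library properties, so r is a description only. MTOR was most like DNAJC10 (0.980) and CD63 (0.971), PDPK1 like ABAT (0.977) and TVP23B (0.975), AKT1 like UPF1 (0.978) and FASN (0.974) and AKT2 like PTPRF (0.968) and CPSF3L (0.949). PIK3R3 was most like LDHA (0.961) and LDHAP4 (0.956), the latter a pseudogene of LDHA whose reads cannot be told apart with certainty. TMC5 (0.898) was among the genes most like PIK3R1. PIK3CA was most like YPEL5 (0.900) and KDM5B (0.894), PHLPP1 like KIAA0100 (0.845) and ZMPSTE24 (0.840) and INPP4B like AC098614.2 (0.845) and TPM4 (0.828). PDPK1 itself shares sequence with a near-identical pseudogene copy, so its counts are uncertain to that extent.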

How the data were processed

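RNA of VCaP and LAPC4 cells was sequenced as stranded poly(A) libraries with single reads of 50 bases. The authors demultiplexed with bcl2fastq 2.17, aligned to GRCh38 with STAR and counted reads per gene with featureCounts. The deposited values are raw counts per gene symbol, and tool versions other than the above, the annotation and the strand setting are not given in the sources used here. Reads of overlapping or antisense genes and of near-identical copies may therefore be misassigned. All columns were matched to labelled samples (0 left over).

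Counts were tested with edgeR 4.0.16 (quasi-likelihood, TMM scaling) in R 4.3.3, with the 8 groups of a line in 1 fit and all 16 groups in 1 fit for comparisons between lines. Genes needed 10 reads in 4 libraries. P-values were adjusted by Benjamini-Hochberg over all genes tested, and a gene was called at an adjusted p under 0.05. Standard errors were derived from the F statistic, and 95% intervals from them with the normal distribution. The test, on simulated data, recovered 99.5% of 200 genes changed 2-fold among 19266 genes for R1881 in VCaP at 22 h. Of its calls, 2.93% were false. In the data 77.4% of the genes passed there, and many changes were under 2-fold, which this simulation does not cover. CPM used TMM factors, and exon lengths came from GENCODE. Alternatives were other scalings, DESeq2 1.42.0, no filter, the compared groups only, subsets of controls, a GC covariate (a GC value was known for 84.4% and 84% of genes tested), a replicate block and leaving out libraries. Total counts ranged from 12188455.0 to 25201678.0 per library, and no pair of libraries within a group agreed within sampling noise.

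Named genes were all 9 members, from the pathway list the 3 genes per line and direction with the smallest adjusted p for R1881 at 22 h, and per member the 2 most similar genes. Some genes that this rule, the marker list or the pathway list would name are not reported here. KLK3, FKBP5 and ERG served as checks of treatment and line. The members and lists were chosen with earlier results of these data known.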

Additional observations from a re-analysis of the deposited data

Results flagged for a closer look

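Dixon's test was run for each of the 9 genes in each of the 16 groups of 4 to 10 libraries, and in 4 of these 144 tests 1 library stood apart from the rest, which chance gives in about 1 in 20 tests. AKT1 in VCaP with R1881 and 0.5 µM darolutamide at 8 h had replicate 1 at 85.05 CPM, below the other libraries at 110.3 to 113 CPM. PDPK1 in VCaP with DMSO at 8 h had replicate 5 at 55.8 CPM, below the other libraries at 61.9 to 69.2 CPM. PHLPP1 in LAPC4 with R1881 at 22 h had replicate 10 at 41.4 CPM, below the other libraries at 45.5 to 50.5 CPM. MTOR in LAPC4 with DMSO at 22 h had replicate 1 at 134 CPM, below the other libraries at 146 to 155 CPM.

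In 16 of 36 tests of a difference between responses, the difference passed at an adjusted p under 0.05 with edgeR. Over all genes tested, 60.4% passed for 22 h minus 8 h in VCaP and 3.21% in LAPC4. For VCaP minus LAPC4 the shares were 58.5% at 8 h and 68.5% at 22 h. The R1881 response in VCaP was higher at 22 h than at 8 h by 0.55 (log2) for PHLPP1, 0.55 for PIK3R3, 0.75 for AKT1, 0.46 for PDPK1 and 1.01 for MTOR. The R1881 response in VCaP minus that in LAPC4 at 8 h was -0.20 for PHLPP1, -0.43 for PIK3R1, -0.21 for PIK3R3, 0.30 for AKT1 and 0.38 for PDPK1. At 22 h it was 0.39 for PHLPP1, -0.39 for PIK3R1, 0.47 for PIK3R3, 0.83 for AKT1, 0.83 for PDPK1 and 0.94 for MTOR.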

How the results depend on the processing

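Of the fold changes of the 9 genes under all alternatives, 2409 kept direction and side of the threshold, 56 lost the call, 51 gained one, 166 changed sign without a call in either fit, and none reversed a call. The causes of the changes below were not tested. The counts below are of the 9 genes only, and the numbers of all genes that passed were recorded only for the scalings. For R1881 in VCaP at 8 h, 4658 of 19266 genes were higher and 9058 lower with total counts, against 6327 and 6564 with TMM. With total counts as library sizes, 5 of the 9 genes passed for R1881 in VCaP at 8 h. In VCaP, 4 passed for 2 µM darolutamide plus R1881 against DMSO at 8 h (27.5% of all genes with TMM). For 0.5 µM against R1881 at 22 h, 5 passed (53.0% of all genes with TMM). Total counts can move the calls of all genes, as for R1881 at 8 h, so these counts are not read as particular to the 9 genes. With the GC slope as covariate these counts were 2 between the doses in VCaP at 8 h, 4 for 2 µM plus R1881 against DMSO at 8 h and 6 for 0.5 µM at 22 h, and in LAPC4 4 for 2 µM at 8 h, 3 for 0.5 µM at 8 h and 1 for the R1881 response at 22 h minus 8 h. With replicates 1 to 5 as the only controls, 4 passed for 2 µM in VCaP at 8 h and 1 for 0.5 µM in LAPC4 at 8 h. With replicates 6 and above, 1 passed for 2 µM plus R1881 against DMSO in VCaP at 8 h and 5 for 0.5 µM at 22 h, and in LAPC4 1 for R1881 at 8 h, 2 for R1881 at 22 h and 0 for 2 µM at 8 h. With the compared groups only, 6 passed for 0.5 µM in VCaP at 22 h and 3 for 2 µM in LAPC4 at 22 h. Leaving out 1 darolutamide library at a time gave 1 to 2 for 2 µM in LAPC4 at 8 h, and 2 without replicate 1. Libraries with DMSO or with R1881 alone were not left out in this way.

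Whether the replicate numbers shared by groups pair the libraries is not known. The deviations of same-numbered libraries had a mean correlation of -0.0051 in VCaP (149.0 pairs, -0.50 to 0.46) and 0.055 in LAPC4 (161.0 pairs, -0.57 to 0.60). It was above 0.1 in 33 of the VCaP pairs and 57 of the LAPC4 pairs, and a mean over all pairs cannot exclude pairing between some groups. With the replicate block, which used only the compared groups and the numbers they share, 2 of the 9 genes passed for 0.5 µM darolutamide against R1881 in VCaP at 8 h, 0 between the doses at 8 h and 1 for R1881 in LAPC4 at 8 h. In VCaP at 8 h the block ended the calls for 0.5 µM of PIK3R3 (0.19, adjusted p = 0.153), PDPK1 (-0.17, adjusted p = 0.071) and MTOR (-0.10, adjusted p = 0.23), for 2 µM of AKT1 (-0.18, adjusted p = 0.0848) and between the doses of PDPK1 (-0.15, adjusted p = 0.0617). At 22 h it ended those of PIK3R1 for 2 µM (0.11, adjusted p = 0.0973) and for 2 µM plus R1881 against DMSO (-0.11, adjusted p = 0.113). In LAPC4 it ended those of R1881 for PIK3R3 (-0.092, adjusted p = 0.357) and MTOR (0.13, adjusted p = 0.05) at 8 h and PHLPP1 at 22 h (-0.060, adjusted p = 0.205), and of PHLPP1 for 2 µM (0.034, adjusted p = 0.548) and 0.5 µM (0.094, adjusted p = 0.184) at 22 h. It added calls at 22 h for PIK3R3 with 0.5 µM in VCaP (0.16, adjusted p = 0.0209), and in LAPC4 for AKT1 with R1881 (0.19, adjusted p = 0.039) and PIK3R1 with 2 µM (-0.10, adjusted p = 0.00279).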
